A study of Homo sapiens with 12 samples.

Results

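The WNT ligands, their receptors and co-receptors, the Dishevelled proteins, the secreted antagonists and the feedback genes of the pathway were followed in cabozantinib-resistant and parental Caki-1 cells. Members were chosen by symbol. The rule used no measured value, but it was set with earlier results of these data known. It covered 19 WNT ligands, 10 Frizzled receptors, 3 Dishevelled genes and the 5 co-receptors LRP5, LRP6, RYK, ROR1 and ROR2. It also covered 8 secreted antagonists of the SFRP and DKK families, and the 7 feedback and regulator genes AXIN1, AXIN2, LGR4, RNF43, ZNRF3, NKD1 and NKD2. Together these members are 52 of the 20114 gene symbols in the deposited RNA tables. The test of the difference between the lines covered the 27 members with 10 or more counts in at least 2 libraries, and the other 25 members were too low to enter it; 16 of these had a count and entered 2 alternative fits with no filter on low values.

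Caki-1 is a human renal carcinoma cell line, and cabozantinib is an inhibitor of several receptor tyrosine kinases, among them MET, AXL and the VEGF receptors. The series title concerns AXL and c-Met in resistance of renal cancer to treatment. Resistant cells were selected in McCoy's 5A medium with 5 µM cabozantinib, raised over 2 months to 20 µM, and then kept in 10 µM. The parental line grew in RPMI 1640 medium, and both media held 10% serum. Medium, drug and selection therefore differ together between the lines and cannot be told apart. The labels state neither whether the resistant line is 1 clone nor whether the libraries of a line came from separate cultures, so the p-values measure the spread between these libraries, which may be technical. Of the 12 samples, the 4 RNA libraries are used here, 2 of the resistant line and 2 of the parental line.

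WNT ligands are secreted lipid-modified proteins that bind Frizzled receptors together with a co-receptor. With LRP5 or LRP6, the signal passes through Dishevelled to the AXIN scaffold and lets β-catenin accumulate and act with TCF and LEF factors in the nucleus; with RYK, ROR1 or ROR2 it can run through branches that act on cell polarity and the cytoskeleton. SFRP proteins bind WNT ligands outside the cell, and several DKK proteins act on LRP5 and LRP6. In the kidney the pathway is known for its part in the formation of the nephron.

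Estimated counts summed to 14664723 and 12851393 in the resistant libraries and to 10605113 and 10584083 in the parental libraries. The resistant libraries differed from each other far more than the parental ones did, with a chi-square per gene of 48.4 in the resistant pair and 1.95 in the parental pair, so each member is given with both resistant values. Of the markers of the cell line, PAX8, KRT8, KRT18 and VIM were detected, while PAX2, HNF4A and LRP2 had 0 counts in all 4 libraries. Of 14 genes that mark blood, endothelium or stroma, 13 were in the tables and 4 could be tested; the 13 summed to 33.0 and 39.8 CPM (counts scaled by library size) in the resistant libraries, against 81.2 and 78.7 CPM in the parental libraries. DCN and RGS5, both stromal markers, were lower in resistant cells, CD3E and CDH5 had 0 counts in all 4 libraries, and the part of these markers in the results was not tested.

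Of the 27 tested members, DKK1 and RYK were lower in resistant cells at a Benjamini-Hochberg adjusted p under 0.05 in edgeR's quasi-likelihood test, none was higher, and 25 did not pass. Over all 12892 genes tested, 6.40% passed, with 382 genes, or 2.96%, higher and 443 genes, or 3.44%, lower. DESeq2 called DKK1, LGR4 and RYK, all lower in resistant cells, or 11.1% of the tested members against 10.4% of all tested genes. In limma-voom DKK1 and RYK passed, or 7.41% against 5.81%. At an unadjusted p under 0.05, 2 members were higher and 7 were lower, against 13.3% of all tested genes higher and 13.6% lower. The median log2 fold change of resistant over parental cells was -0.17 for the tested members and 0.02 for all tested genes, and the members' values ran from -4.76 for DKK1 to 1.20 for SFRP4. Calls near the threshold depended on the library set: with a resistant library left out, the spread came from the closely matched parental pair, and 16 members, or 59.3%, passed without resistant replicate 1 and 11, or 40.7%, without resistant replicate 2, near the 53.3% and 35.7% of all genes that passed in the same fits. Without parental replicate 1 or 2, DKK1 was the member that passed. These are levels in bulk RNA, in which fewer cells of a type and less RNA per cell cannot be told apart.

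**Figure D1:**
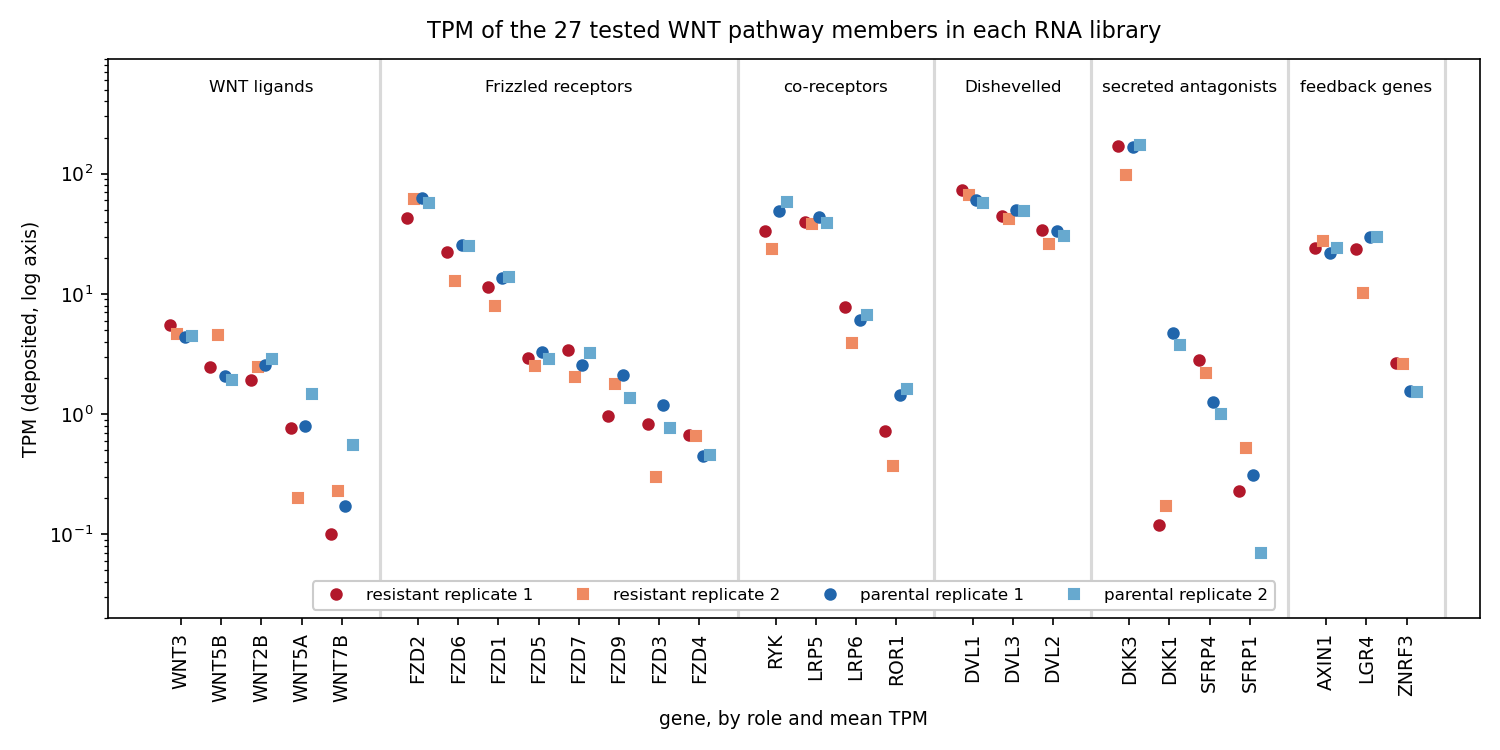
Deposited TPM (transcript abundance scaled by length and library size, log axis) of the 27 tested members in each RNA library, grouped by role and ordered by mean TPM; circles are replicate 1 and squares replicate 2 of the resistant (red and orange) and parental (dark and light blue) line. DKK1 stands at 0.12 and 0.17 TPM in the resistant libraries, against 4.75 and 3.72 TPM in the parental libraries, and FZD2, DKK3 and LGR4 show resistant libraries that lie apart from each other.

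**Figure D2:**
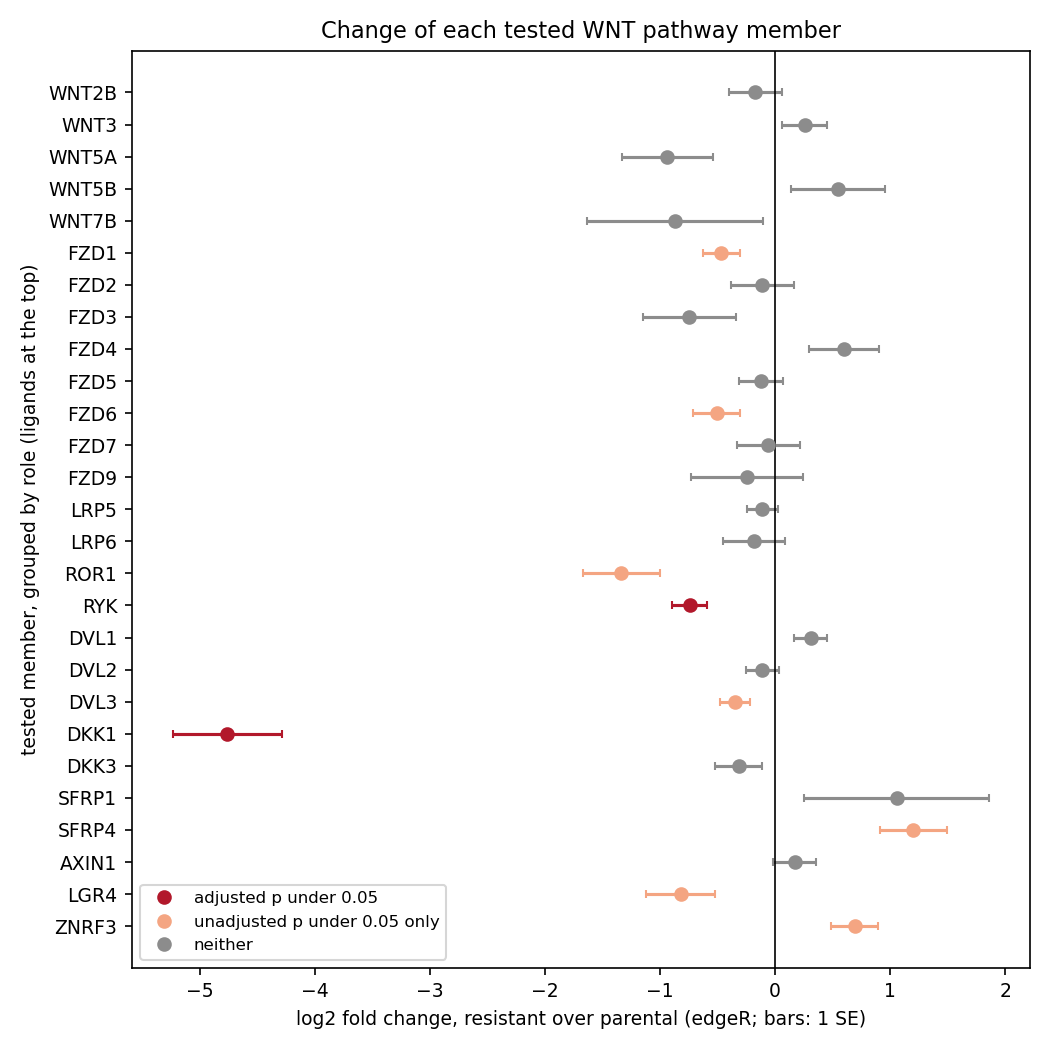
Log2 fold change of resistant over parental cells for each tested member, from edgeR, with bars of 1 SE from 2 libraries per line. DKK1 and RYK, in dark red, passed the adjusted threshold; members in light orange passed only at an unadjusted p under 0.05.

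DKK1, a secreted protein that binds LRP5 and LRP6 and keeps them from the WNT receptor complex, had 2 and 3 counts in the resistant libraries, against 58 and 46 counts in the parental libraries. That is 0.129 and 0.233 CPM in resistant cells and 5.65 and 4.46 CPM in parental cells, and the groups did not overlap. The pooled level was 28.7-fold lower in resistant cells, with a 95% interval of 11.9 to 90.2 that covers counting error only. The fitted log2 fold change was -4.76 ± 0.48 (SE, n = 2 each; adjusted p = 0.0085), and DKK1 passed under each of the 16 alternative settings planned for the analysis. Of all members, DKK1 alone had 10 or more counts in both libraries of one line and under 10 in both of the other.

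RYK, a transmembrane WNT co-receptor with a kinase-like domain that is thought to be inactive, had 63.4 and 54.4 CPM in the resistant libraries and 98.9 and 98.3 CPM in the parental libraries. Both resistant values lay below both parental values, and RYK was 1.67-fold lower in resistant cells (log2 fold change -0.74 ± 0.15, SE, n = 2 each; adjusted p = 0.0454). On the TPM scale RYK had 33.6 and 23.5 in resistant cells and 49.2 and 57.7 in parental cells. It was the most abundant tested co-receptor in the parental libraries, while LRP5, at 39.9 and 38.0 TPM, was in the resistant libraries. The call lay close to the threshold: it was lost with library totals as the only scaling (adjusted p = 0.0665), in the 3 fits on log2 TPM (0.0753 to 0.141) and without parental replicate 1 (0.471) or 2 (0.460). RYK has a pseudogene copy, RYKP1, so a part of its reads could have been assigned to either.

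The DNA just before the start sites of these 2 genes is shown because they were the members that passed the test. The 250 bases before each start come from RefSeq's promoter windows on GRCh38.p14 and are given 5′ to 3′ on the gene's own strand, DKK1 at chr10:52314031-52314280 on the plus strand and RYK at chr3:134250860-134251109 on the minus strand. Capitals mark CTTTGA, the core letters read by TCF and LEF factors, on either strand (TCAAAG on the other), and TATAAA, the TATA box.
DKK1: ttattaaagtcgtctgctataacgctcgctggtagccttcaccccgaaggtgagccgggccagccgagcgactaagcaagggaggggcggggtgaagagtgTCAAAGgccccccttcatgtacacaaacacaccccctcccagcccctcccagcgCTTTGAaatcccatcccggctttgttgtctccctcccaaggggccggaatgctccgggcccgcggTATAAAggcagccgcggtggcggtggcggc
RYK: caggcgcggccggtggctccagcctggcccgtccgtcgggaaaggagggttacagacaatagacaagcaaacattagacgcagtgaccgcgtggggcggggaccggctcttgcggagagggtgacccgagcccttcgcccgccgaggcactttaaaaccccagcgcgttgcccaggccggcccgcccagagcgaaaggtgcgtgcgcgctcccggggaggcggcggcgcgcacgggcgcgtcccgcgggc

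The DKK1 window held CTTTGA at 95 bases before the start and its reverse form TCAAAG at 149 bases before it, with TATAAA at 30 bases. The RYK window held none of these. The GC box GGGCGG stood in both windows, at 157 bases before the start of RYK, with its reverse form CCGCCC at 69 bases, and at 166 bases before that of DKK1. In RYK 72.0% of the bases were G or C, against 62.8% in DKK1. RefSeq's table gave windows for 36 of the 52 members, 40 windows in all. CTTTGA or its reverse form stood in 1 of the 40 member windows, that of DKK1, or 2.5%, against 9.62% of all 22199 protein-coding windows of that length. TATAAA on either strand stood in 7.5% of member windows and 9% of all windows, and GGGCGG on either strand in 77.5% of member windows and 53.7% of all windows. The median GC content was 72.2% in member windows and 62.0% in all windows. These matches describe letters and show no binding.

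Among the 19 WNT ligands, 5 were abundant enough to test, and none passed the adjusted threshold or had an unadjusted p under 0.05. Summed over the family, ligand mRNA stood at 11.4 and 12.7 TPM in resistant cells and 10.6 and 12.1 TPM in parental cells, ranges that overlapped. WNT3, WNT5B and WNT2B had the highest mean TPM.

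WNT3, a ligand known for β-catenin signalling, had 12.7 and 12.9 CPM in the resistant libraries and 10.5 and 10.9 CPM in the parental libraries. Both resistant values were higher, but the difference did not pass (log2 fold change 0.26 ± 0.20, SE; adjusted p = 0.434). WNT5B, a ligand known mainly for branches that do not use β-catenin, had 2.97 and 5.89 CPM in resistant cells and 3.12 and 2.91 CPM in parental cells. Resistant replicate 2 stood above the other 3 libraries, and the adjusted p was 0.431, with a log2 fold change of 0.55 that became 0.97 (adjusted p = 0.0223) without resistant replicate 1 and -0.03 with resistant replicate 1 as the only resistant library. WNT2B, which can act through β-catenin, had 11.0 and 15.1 CPM in resistant cells and 15.5 and 14.0 CPM in parental cells, with overlap and an adjusted p of 0.660. WNT5A was named after its values were seen because it is a known ligand of RYK, ROR1 and ROR2. It had 1.55 and 1.01 CPM in resistant cells and 2.24 and 2.71 CPM in parental cells. The difference did not pass (log2 fold change -0.94 ± 0.40, SE; adjusted p = 0.198). The remaining tested ligand, WNT7B, stayed under 2 CPM in all 4 libraries.

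The other 14 ligands had at most 7 counts in any library. WNT1, WNT7A, WNT8A, WNT8B and WNT9B had 0 counts in all 4 libraries, where a count of 0 allows up to 3 counts per library. WNT2 was read in 1 line: it had 0 and 0 counts in resistant cells against 7 and 7 in parental cells, which puts it at least 3.22-fold lower in resistant cells if each resistant library is set to that floor of 3 counts. WNT10B had 6 and 3 counts in resistant cells against 1 and 1 in parental cells, and WNT3A had 2 and 3 against 0 and 0. In the edgeR fit with no filter, none of the 16 low members with a count passed, and the adjusted p-values were 0.0894 for WNT2, 0.465 for WNT10B and 0.356 for WNT3A; the fit on TPM with no filter called none of them either, with 0.0852 for WNT2.

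Of the 10 Frizzled receptors, 8 were tested and none passed; FZD8 had at most 3 counts in any library, and FZD10 had 0 counts in all 4. Summed Frizzled mRNA was 85.6 and 90.3 TPM in resistant cells and 111 and 105 TPM in parental cells, so that both resistant sums lay below both parental sums. The gene furthest below the parental libraries differed between the resistant libraries. FZD2, the largest part of each sum, had 43.05 TPM in resistant replicate 1 and 62.19 TPM in replicate 2. Its parental values were 63.01 and 57.36 TPM, so FZD2 overlapped between the lines. FZD6 had 22.26 and 12.72 TPM in resistant cells and 25.37 and 25.09 TPM in parental cells. Among the 7 tested Frizzled genes with a negative log2 fold change, FZD1 and FZD6 had an unadjusted p under 0.05. FZD1 had 34.4 and 29.5 CPM in resistant cells and 43.1 and 45.2 CPM in parental cells (log2 fold change -0.47 ± 0.16, SE; unadjusted p = 0.0281, adjusted p = 0.139). FZD6, a receptor known for its part in hair and tissue polarity in the mouse, had 58.1 and 40.5 CPM in resistant cells and 70.1 and 70.2 CPM in parental cells (log2 fold change -0.51 ± 0.21, SE; unadjusted p = 0.0480, adjusted p = 0.182). Neither gene's groups overlapped, and 29.8% of all tested genes also lay lower in resistant cells without overlap. With 1 library left out, the log2 fold change ran from -0.579 to -0.367 for FZD1 and from -0.79 to -0.277 for FZD6.

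FZD2, the Frizzled with the highest mean TPM, had 54.4 and 95.8 CPM in the resistant libraries and 84.5 and 77.6 CPM in the parental libraries. Resistant replicate 1 was the lowest of the 4 libraries and replicate 2 the highest. FZD2 made up 50.3% and 68.9% of Frizzled TPM in resistant cells and 56.6% and 54.6% in parental cells. The log2 fold change was -0.11 ± 0.27 (SE; adjusted p = 0.821), and its sign rested on single libraries: it was 0.25 (adjusted p = 0.0387) when resistant replicate 1 was left out and -0.58 (adjusted p = 0.00594) when resistant replicate 2 was left out.

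Each of the 4 tested co-receptors had a negative log2 fold change, with a median of -0.46, and RYK passed. Among all 12892 tested genes, 6258 had a negative value. Summed co-receptor mRNA was 81.9 and 65.8 TPM in resistant cells and 100.0 and 105 TPM in parental cells. Most of this difference was RYK, with a mean of 28.55 TPM in resistant cells and 53.46 TPM in parental cells. The means of LRP5 were 38.96 and 41.08 TPM, those of LRP6 5.80 and 6.385 TPM, and those of ROR1 0.545 and 1.54 TPM. ROR1, a receptor for WNT5A with an extracellular domain like that of Frizzled, had 2.97 and 1.86 CPM in resistant cells and 5.65 and 6.69 CPM in parental cells. The groups did not overlap, and the log2 fold change was -1.34 ± 0.34 (SE; unadjusted p = 0.00694), but the adjusted p was 0.0731. ROR1 passed in the fit that corrects for a trend with gene length (adjusted p = 0.0371), in which 17.2% of all genes passed. Its log2 fold change was -1.721 without resistant replicate 1 and -1.058 without resistant replicate 2. Without parental replicate 1 or 2 it was -1.458 and -1.215. ROR2 had 0 counts in all 4 libraries.

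LRP5 and LRP6 are the co-receptors of β-catenin signalling and the proteins to which DKK1 binds. LRP5 had 120 and 116 CPM in resistant cells and 130 and 125 CPM in parental cells, a log2 fold change of -0.11 ± 0.14 (SE) with an adjusted p of 0.633. LRP6 had 41.8 and 24.3 CPM in resistant cells and 36.8 and 38.4 CPM in parental cells, with the highest and the lowest value both in the resistant line and an adjusted p of 0.694. Without resistant replicate 1 the log2 fold change of LRP6 was -0.62 (adjusted p = 0.0057), and without resistant replicate 2 it was 0.15.

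The Dishevelled genes, whose proteins carry the signal from Frizzled into the cell, had fold changes of both signs and none passed. DVL1 had 149 and 165 CPM in resistant cells and 130 and 123 CPM in parental cells (log2 fold change 0.31 ± 0.14, SE; adjusted p = 0.224). DVL3 had 151 and 145 CPM in resistant cells and 189 and 188 CPM in parental cells (log2 fold change -0.35 ± 0.13, SE; unadjusted p = 0.0398, adjusted p = 0.163). DVL2 had 58.8 and 58.8 CPM in resistant cells and 64.8 and 62.3 CPM in parental cells, with an adjusted p of 0.643. With 1 library left out, the log2 fold change ran from 0.229 to 0.383 for DVL1 and from -0.37 to -0.327 for DVL3. None of the 3 overlapped between the lines in CPM, where 30.7% of all tested genes lay above and 29.8% below without overlap. In TPM, DVL2 overlapped, with 34.0 and 26.1 in resistant cells and 33.4 and 30.3 in parental cells. The summed level of the 3 genes was 152 and 135 TPM in resistant cells and 144 and 136 TPM in parental cells. DVL1 has a pseudogene copy, DVL1P1, with which reads could be shared.

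Among the secreted antagonists, 4 of 8 were tested, and DKK1, described above, passed. SFRP4, a secreted protein with a Frizzled-like domain that binds WNT ligands, had 5.62 and 5.35 CPM in resistant cells and 2.63 and 2.13 CPM in parental cells. It was the member with the highest log2 fold change, 1.20 ± 0.29 (SE; unadjusted p = 0.00609), and the adjusted p was 0.0686. SFRP4 passed with the length correction (adjusted p = 0.0329), where 17.2% of all genes passed. With 1 library left out, its log2 fold change ran from 1.057 to 1.359.

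DKK3, a member of the Dickkopf family that is not known to block LRP6 as DKK1 does, made up 96.4% to 98.1% of antagonist TPM in every library. It had 282 and 195 CPM in resistant cells and 297 and 297 CPM in parental cells, a log2 fold change of -0.32 ± 0.20 (SE) with an adjusted p of 0.362. Resistant replicate 1 lay close to the parental libraries and replicate 2 lay lower. The log2 fold change was -0.607 without resistant replicate 1 and -0.08 without resistant replicate 2. SFRP1 stayed under 2 CPM in all 4 libraries, DKK2 and SFRP2 had at most 3 counts in any library, and DKK4 and SFRP5 had 0 counts in all 4.

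The feedback genes include 3 that could be tested, and none passed. ZNRF3, a membrane ubiquitin ligase that removes Frizzled and LRP6 from the cell surface, had 12.7 and 13.1 CPM in resistant cells and 7.99 and 7.95 CPM in parental cells. The replicates of each line lay close together, and the log2 fold change was 0.69 ± 0.20 (SE; unadjusted p = 0.0143, adjusted p = 0.102). ZNRF3 passed with the length correction (adjusted p = 0.0405), where 17.2% of all genes passed. With 1 library left out, its log2 fold change ran from 0.661 to 0.72. RNF43, its relative with the same known activity, had 2 and 3 counts in resistant cells and 2 and 3 counts in parental cells.

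LGR4, a receptor for R-spondins that holds ZNRF3 and RNF43 in check, had 86.1 and 44.8 CPM in resistant cells and 115 and 116 CPM in parental cells. Both resistant values were lower, with resistant replicate 2 the lowest, and the log2 fold change was -0.82 ± 0.30 (SE; unadjusted p = 0.0339, adjusted p = 0.152). LGR4 passed in DESeq2 (adjusted p = 0.0410) and in limma-voom with sample quality weights (0.0129), where 10.4% and 12.6% of all genes passed. Its log2 fold change was -1.363 without resistant replicate 1 and -0.43 without resistant replicate 2. Without parental replicate 1 or 2 it was -0.822 and -0.815. AXIN1, the scaffold of the complex that marks β-catenin for destruction, had 56.0 and 73.4 CPM in resistant cells and 54.7 and 60.3 CPM in parental cells, with overlap and an adjusted p of 0.589; without resistant replicate 1 its log2 fold change was 0.36 (adjusted p = 0.0207) and without replicate 2 it was -0.04.

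AXIN2 and NKD1, genes that β-catenin signalling is known to induce in many tissues, were close to the limit of detection in both lines. AXIN2 had 3 and 3 counts in resistant cells and 5 and 3 counts in parental cells. NKD1 had 1 and 0 counts in resistant cells and 1 and 0 counts in parental cells, and NKD2 had 2 and 3 against 0 and 3. In the edgeR fit with no filter the adjusted p was 0.611 for AXIN2 and 0.928 for both NKD1 and NKD2, and small differences could not be resolved at these counts.

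In CPM, 5 of the 27 tested members had both resistant libraries above both parental ones (WNT3, FZD4, DVL1, SFRP4 and ZNRF3). Both lay below in 13 (WNT5A, FZD1, FZD3, FZD5, FZD6, LRP5, ROR1, RYK, DVL2, DVL3, DKK1, DKK3 and LGR4), while 9 overlapped. The nearest FZD5 libraries of the 2 lines both stood at 14.7 CPM. The split depended on the scale. In TPM, FZD3, FZD5, LRP5, DVL2 and DKK3 overlapped between the lines. WNT2B, lower in resistant cells, and WNT5B, higher, overlapped in CPM but not in TPM. Among all tested genes, 30.7% lay above and 29.8% below without overlap. The 8 tested members outside the rule for values by library, which are WNT5A, WNT7B, FZD3, FZD4, FZD5, FZD7, FZD9 and SFRP1, had log2 fold changes between -0.94 and 1.06 and adjusted p-values between 0.198 and 0.907. Resistant replicate 1 lay below both parental libraries in 17 of the 27 members, or 63%, and resistant replicate 2 in 15, or 55.6%, against 41.8% and 45.4% of all tested genes.

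**Figure D3:**
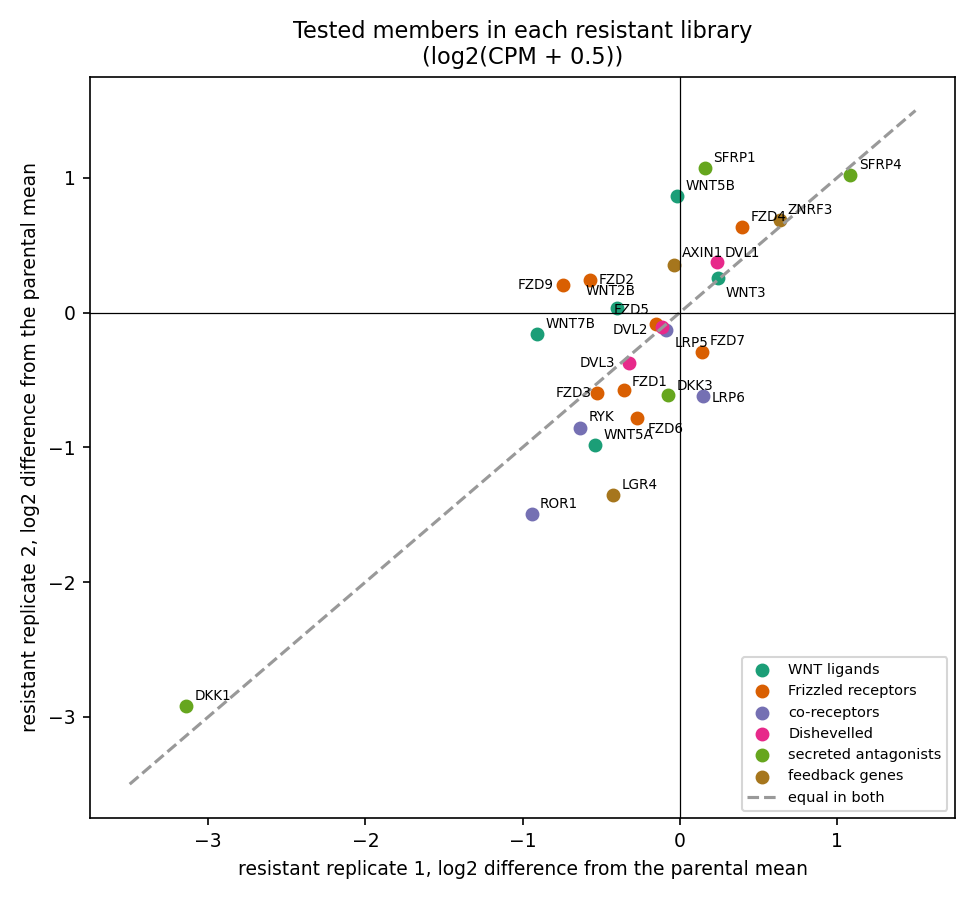
Each tested member's difference from the parental mean in resistant replicate 1 (x axis) and resistant replicate 2 (y axis), on the log2(CPM + 0.5) scale, coloured by role; the dashed line marks equal differences. Both axes share the parental mean. DKK1, ROR1, RYK, SFRP4 and ZNRF3 lie on the same side of 0 in both libraries. These had an unadjusted p under 0.05 in a test on these same libraries, so their shared side is no further result. WNT2B, WNT5B, FZD2, FZD7, FZD9, LRP6 and AXIN1 lie on opposite sides.

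Genes that act around these members were read from 4 lists, which were chosen with earlier results of these data known. Of 24 secretion factors and extracellular modulators, 11 were tested. Among these, 2 rose, 2 fell and 7 did not pass, while 6.40% of all tested genes passed. At an unadjusted p under 0.05, 5 were higher and 3 were lower, against 13.3% and 13.6% of all tested genes. The median log2 fold change was 0.65, against 0.02 for all tested genes. GPC4, a glypican of the cell surface that can bind WNT ligands, had 70 and 53 counts in resistant cells and 1 and 1 count in parental cells, a pooled level 44.6-fold higher in resistant cells (95% counting interval 12.1 to 372; adjusted p = 0.00797). KREMEN1, a receptor for Dickkopf proteins, had 11.3 and 9.23 CPM in resistant cells and 3.80 and 3.01 CPM in parental cells (log2 fold change 1.59 ± 0.27, SE; adjusted p = 0.0289); its call was lost in the fits on TPM (0.119 to 0.142) and without parental replicate 1 (0.0574) or 2 (0.163).

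IGFBP4, an IGF-binding protein reported to antagonise WNT receptors, had 70.1 and 73.0 CPM in resistant cells and 256 and 265 CPM in parental cells, a log2 fold change of -1.86 ± 0.14 (SE; adjusted p = 0.00338). RECK, a membrane protein that serves WNT7A and WNT7B signalling in brain endothelium, had 5.88 and 5.12 CPM in resistant cells and 13.4 and 10.9 CPM in parental cells (adjusted p = 0.0491); it passed in 8 of 16 alternative settings and not without parental replicate 1 (0.433) or 2 (0.156). WLS, which carries WNT ligands to the cell surface and is named here after its values were seen, had 68.9 and 61.9 CPM in resistant cells and 42.5 and 40.9 CPM in parental cells, and the adjusted p was 0.0615.

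All 35 listed genes of the β-catenin complexes and the TCF and LEF factors were tested; none rose, 1 fell and 34 did not pass, with a median log2 fold change of -0.005; 4 were higher at an unadjusted p under 0.05 and 3 were lower, against 13.3% and 13.6% of all tested genes, and DESeq2 called 0 higher. The gene that fell was DACT1, a Dishevelled-binding protein, with 1.49 and 1.01 CPM in resistant cells and 8.09 and 8.43 CPM in parental cells (log2 fold change -2.71 ± 0.32, SE; adjusted p = 0.0125), a call lost in 2 of the TPM fits (0.0593 and 0.0847). CTNNB1, which encodes β-catenin and was named after its values were seen, had 229 and 163 CPM in resistant cells and 174 and 176 CPM in parental cells, with overlap and an adjusted p of 0.621. LEF1, named likewise, had 0.839 and 1.63 CPM in resistant cells and 0.390 and 0.194 CPM in parental cells, and its adjusted p was 0.126.

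Of 26 genes of the polarity branch, all tested, 1 rose, 1 fell and 24 did not pass, with a median of -0.13. At an unadjusted p under 0.05, 2 were higher and 8 were lower, against 13.3% and 13.6% of all tested genes. RAC1, a small GTPase that acts on the actin cytoskeleton, had 477 and 539 CPM in resistant cells and 295 and 316 CPM in parental cells (log2 fold change 0.73 ± 0.15, SE; adjusted p = 0.0440). PRICKLE1, a core polarity protein, had 6.72 and 6.51 CPM in resistant cells and 17.2 and 13.5 CPM in parental cells (log2 fold change -1.21 ± 0.23, SE; adjusted p = 0.0369). Both calls were lost without parental replicate 1 (adjusted p = 0.619 for RAC1 and 0.337 for PRICKLE1) and without parental replicate 2 (0.522 and 0.0777). RAC1 also lost its call in the TPM fit with no filter (0.0773) and PRICKLE1 in the 3 TPM fits (0.342 to 0.442), where its log2 fold change was as small as -0.65, and both genes have pseudogene copies that could share reads.

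Of 22 genes listed as targets of β-catenin in other settings, 17 were tested. Among these, 1 rose, 1 fell and 15 did not pass, with a median of -0.02. At an unadjusted p under 0.05, 4 were higher and 4 were lower, against 13.3% and 13.6% of all tested genes. SOX9, a transcription factor of progenitor cells, had 11.4 and 17.0 CPM in resistant cells and 3.41 and 3.20 CPM in parental cells (log2 fold change 2.09 ± 0.30, SE; adjusted p = 0.0188), a call lost in the TPM fit with no filter (0.0767). EPHB2, a receptor tyrosine kinase for ephrins, had 305 and 266 CPM in resistant cells and 505 and 483 CPM in parental cells (log2 fold change -0.79 ± 0.15, SE; adjusted p = 0.0369), and its call was lost in the 3 TPM fits (0.066 to 0.136) and without parental replicate 1 (0.488) or 2 (0.414). Over all tested genes 6.40% passed. The lists were chosen with earlier results of these data known, so their shares are no independent test against that value.

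**Figure D4:**
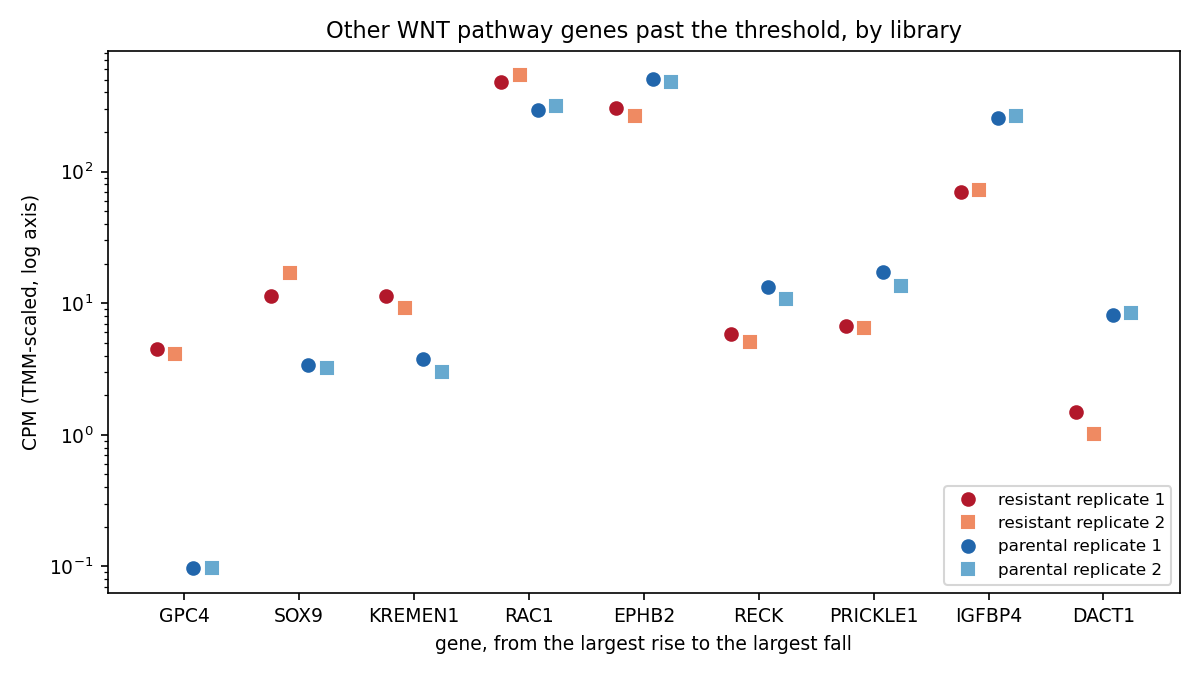
CPM (scaled by TMM factors, log axis) of the 9 genes of the related lists that passed the adjusted threshold, by library, ordered from the largest rise to the largest fall; markers are as in the plot of TPM by library. The 9 were picked by a test on these same libraries, so the lack of overlap between the lines is no further result. GPC4 stands at 0.097 CPM in both parental libraries, which is 1 count each.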

How the data were processed

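The 2 resistant and 2 parental RNA libraries were sequenced as 150-bp pairs. The authors deposited a matrix of estimated counts per gene symbol, of which 3.16% were not whole numbers, and a matrix of TPM; STAR and RSEM, DESeq2 1.40.2, and GRCh38 and hg19 as builds stand in the submitters' processing notes, without their roles. Peak lists and input libraries were not analysed here. Counts were rounded and scaled by TMM factors (1.056 and 1.004 for the resistant libraries, 0.968 and 0.975 for the parental ones). Genes with 10 or more counts in at least 2 libraries were tested with edgeR 4.0.16 (quasi-likelihood F test, Benjamini-Hochberg adjustment over 12892 genes, threshold 0.05) in R 4.3.3, after the code had been tested on simulated data. CPM values use the TMM-scaled totals, levels between genes were compared in TPM, and SE is that of the log2 fold change. In the symbols, 28 had been turned into dates. How strand and annotation were handled in counting is not given in the sources used here.

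Alternatives used other scalings, filters, DESeq2 1.42.0, limma 3.58.1 (voom, and limma-trend on log2 TPM), a length correction, the replicate number as a block, and each library left out. Values by library are given for members past the threshold or with an unadjusted p under 0.05, for the 3 with the highest mean TPM per role, and for members with 10 or more counts in both libraries of one line only; related lists name up to 3 rises and 3 falls. The members and lists were chosen with earlier results of these data known. Promoter windows were read from RefSeq (GRCh38.p14) by symbol, with 250 bases before the start searched on both strands. Intervals and floors cover counting error only.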

Additional observations from a re-analysis of the deposited data

How the results depend on the processing

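Of the alternatives for single genes, 376 values kept direction and side of the threshold, 35 lost and 29 gained the call, and 8 reversed. Reversed log2 fold changes were, with the length correction, 0.015 for LRP5, 0.027 for LRP6 and 0.114 for WNT2B; without resistant replicate 1, 0.041 for WNT2B and 0.245 for FZD2; and without resistant replicate 2, 0.146 for LRP6, -0.044 for AXIN1 and -0.026 for WNT5B. Leaving out the other resistant library gave -0.624 for LRP6, 0.356 for AXIN1 and 0.968 for WNT5B (without replicate 1) and -0.581 for FZD2 and -0.421 for WNT2B (without replicate 2). Over all genes, where 382 were higher and 443 lower, library totals as the only scaling gave 532 higher and 375 lower, so that 58.7% of calls were higher, and gave a median log2 fold change of all genes of 0.102 in place of 0.018. DESeq2 called 605 genes higher and 738 lower, quality weights 796 and 834, the length correction 984 and 1231, and TPM fits 243 and 282 (pseudocount 1), 217 and 243 (pseudocount 0.1), and 41 and 98 (no TPM filter). Of the WNT members, where 0 were higher and 2 lower, library totals and each of the 3 TPM fits called 1 lower, and the length correction called 2 higher. For secretion factors and modulators, DESeq2 and quality weights called 4 higher and the TPM fits 1; library totals, voom, quality weights and the TPM fits called 1 lower. Of the β-catenin list, the TPM fits with pseudocount 0.1 and with no filter called 0 lower and the length correction 2. Of the polarity list, 0 were higher in the TPM fit with no filter; 2 were lower in DESeq2, 3 with quality weights, 0 in the TPM fits and 6 with the length correction. Of the targets, 2 were higher with library totals and with quality weights and 0 in the TPM fit with no filter; 2 were lower in DESeq2, 3 with quality weights, 0 in the TPM fits and 3 with the length correction. The cause of these shifts was not tested.

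Leaving out 1 library gave 140 to 3366 genes higher and 256 to 3500 lower over all genes, with the lone library of a line assumed to vary like the other line. The WNT members had 0 to 6 higher and 1 to 10 lower, the secretion list 1 to 5 and 1 to 4, the β-catenin list 0 to 6 and 1 to 16, the polarity list 0 to 3 and 0 to 11, and the targets 1 to 4 and 0 to 5. Without resistant replicate 1, 16 members passed, without resistant replicate 2, 11 did, and without parental replicate 1 or 2 DKK1 alone did.

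The replicate numbers share only a number: deviations of same-numbered libraries correlated at -0.045 over all tested genes and at -0.119 over genes of 10 CPM or more. With the number as a block, 859 genes were higher and 1026 lower, and the WNT members had 1 higher (SFRP4) and 4 lower (DKK1, LGR4, ROR1 and RYK); the secretion list had 5 higher, the polarity list 4 lower and the targets 3 lower. The crossed pairing, chosen after seeing the data, gave 933 higher and 1105 lower over all genes and 1 higher and 4 lower among the WNT members.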
